A study of Mus musculus with 8 samples.

Results

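Syndecans, glypican 1 and the enzymes that build heparan sulfate were examined in RAW264.7 cells, a macrophage-like line from a mouse tumour. The 10 genes were taken by symbol from the deposited table of 22013 genes: the syndecans Sdc1, Sdc2, Sdc3 and Sdc4, the glypican Gpc1, the chain polymerases Ext1 and Ext2, and the sulfotransferases Ndst1, Ndst2 and Hs6st1. They were chosen with the treatment contrast of these same libraries known, so their differences between groups are given as a description and support no test. All 10 had at least 1 read, and 7 of them passed the filter on low counts that left 10748 genes for testing. Sdc2, Gpc1 and Ext1 did not pass.

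The cells received either PBS or recombinant follistatin-like 1 (rFSTL1), a secreted glycoprotein, at 100 ng/mL for 24 h, with 4 libraries in each group and polyadenylated RNA as input. No genotype or genetic change other than the cell line itself is given for either group. Nothing says that the libraries came from separate cultures. Each SD and standard error below therefore rests on variation between these libraries, which may be technical. Totals ran from 15183118 to 20234477 counts in the PBS libraries and from 15062023 to 19260960 in the rFSTL1 libraries. The defining macrophage genes were present, with 0 of 7 at 0 and a summed level of 3743 to 3909 CPM, the share of a library’s counts on a per-million scale, under PBS and 3723 to 3901 under rFSTL1. The 4 rFSTL1 libraries were not alike: mitochondrial transcripts took 4.87% and 5.41% of counts in replicates 4 and 3, against 5.92% to 6.51% in the other 6 libraries, and the same pair had the highest count-weighted GC content (48.7% and 48.4%, others 47.9% to 48.1%). The Fstl1 transcript had 4, 2, 0 and 1 counts under PBS and 0 in each rFSTL1 library. PBS replicates 1 and 2 also held reads of matrix genes, given below, and the origin of the Fstl1 reads was not tested.

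Heparan sulfate is a long sugar chain carried by a few proteins of the cell surface and matrix. Syndecans are transmembrane carriers, glypicans are held to the membrane by a lipid anchor, and the chains bind growth factors, chemokines and matrix proteins. The chain starts on a short linker, is lengthened by the EXT1 and EXT2 proteins working as a complex, and is then modified in steps that NDST enzymes open by replacing acetyl groups with sulfate on glucosamine, after which other sulfotransferases, HS6ST1 among them, add sulfate at further positions. In macrophages syndecans have been studied in adhesion, motility and uptake of lipoproteins.

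The promoters of the 3 tested syndecans are shown because these genes carry most of the values below and their differences were not alike. Windows were read for 6 of the 10 members. Each is the stretch of 250 bases before the RefSeq start of the gene, written 5′ to 3′ on the gene's own strand in build GRCm38.p6: Sdc3 at chr4:130792287-130792536 on the plus strand, Sdc4 at chr2:164443189-164443438 on the minus strand, and Sdc1 at chr12:8771146-8771395 on the plus strand. Capitals mark matches on either strand to ACGTG or GCGTG (the core of hypoxia response elements), TGANTCA (AP-1) and GGG, any 3 bases, then TTCC (NF-κB).
Sdc3: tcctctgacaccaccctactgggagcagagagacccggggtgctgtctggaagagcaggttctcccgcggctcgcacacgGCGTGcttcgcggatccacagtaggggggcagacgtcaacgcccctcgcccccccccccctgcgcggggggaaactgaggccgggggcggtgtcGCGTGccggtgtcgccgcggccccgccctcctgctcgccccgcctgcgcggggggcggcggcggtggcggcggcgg
Sdc4: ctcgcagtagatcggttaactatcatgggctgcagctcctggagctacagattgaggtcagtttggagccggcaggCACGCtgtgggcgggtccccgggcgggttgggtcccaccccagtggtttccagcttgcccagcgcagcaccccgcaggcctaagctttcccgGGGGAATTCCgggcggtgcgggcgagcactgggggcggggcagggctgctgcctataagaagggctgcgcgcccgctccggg
Sdc1: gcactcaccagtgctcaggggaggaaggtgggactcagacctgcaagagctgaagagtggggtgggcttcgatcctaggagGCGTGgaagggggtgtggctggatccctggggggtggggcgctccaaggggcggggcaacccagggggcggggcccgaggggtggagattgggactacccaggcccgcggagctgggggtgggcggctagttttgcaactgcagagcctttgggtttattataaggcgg
The Sdc3 window was 76.4% G and C and held 2 matches to GCGTG, the Sdc4 window (68.0%) and the Sdc1 window (66.0%) 1 each. A match to ACGTG or GCGTG was found in 38.6% of 32841 promoter windows of this length, so such matches are common. The Sdc4 window also held 1 match to the NF-κB letters, first met 82 bases before the start, which 4.65% of windows share. None of the 3 windows held TGANTCA, found in 6.75% of windows. All 3 held GGGCGG, the GC box bound by SP1, which was not put in capitals and was found in 32.7% of windows. Of the windows read but not printed, that of Ext2 held 2 overlapping matches to ACGTG, 1 on each strand, and 1 to GCGTG. The Hs6st1 window (76.4% G and C) held 1 match to GCGTG, and the Ndst2 window 0 to either. A match is a string of letters and not a measured site.

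Sdc3, the syndecan best known from the nervous system, was higher under rFSTL1 in every library. Its level was 25.8, 27.4, 25.7 and 22.8 CPM in PBS replicates 1 to 4 and 36.8, 40.3, 40.9 and 32.3 CPM in rFSTL1 replicates 1 to 4. Every rFSTL1 library lay above every PBS library, and the lowest of them, replicate 4, was still above the highest PBS library. The means were 25.4 ± 1.91 (SD, n = 4) and 37.6 ± 3.96 CPM, which put rFSTL1 47.8% higher. The fitted log2 fold change was 0.56 with a standard error (SE) of 0.08. It was 0.48 once a trend with transcript length and GC content was removed from each library, and 0.60 with rFSTL1 replicates 3 and 4 left out. In bulk RNA a change in the number of cells that carry a transcript and a change in its amount per cell cannot be told apart, and this holds for each gene here. The annotation also places the antisense genes Gm26716 and Gm12970 over 415 and 48 of the 5989 exonic bases of Sdc3. Whether counting used strand is not given in the sources used here, so reads from these partners cannot be told apart from Sdc3.

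Sdc4, which binds protein kinase C alpha through its cytoplasmic tail and sits in focal adhesions, was the most abundant syndecan. It measured 67.6, 69.6, 71.8 and 64.7 CPM in PBS replicates 1 to 4 and 79.5, 84.6, 80.3 and 79.5 CPM in the rFSTL1 replicates. The groups did not overlap here either, and rFSTL1 replicate 2 stood above the rest of its group. The means were 68.4 ± 3.04 and 81.0 ± 2.42 CPM (SD, n = 4), so rFSTL1 was 18.4% higher, with a log2 fold change of 0.24 (SE 0.05).

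Sdc1, the syndecan of epithelia and plasma cells, was low and its groups overlapped. The PBS libraries gave 10.3, 8.80, 9.52 and 8.61 CPM and the rFSTL1 libraries 7.55, 10.3, 9.00 and 8.83 CPM. Replicate 1 of rFSTL1 was the lowest of the 8 and replicate 2 of the same group the highest. The log2 fold change was -0.06 (SE 0.11), less than its error.

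**Figure D1:**
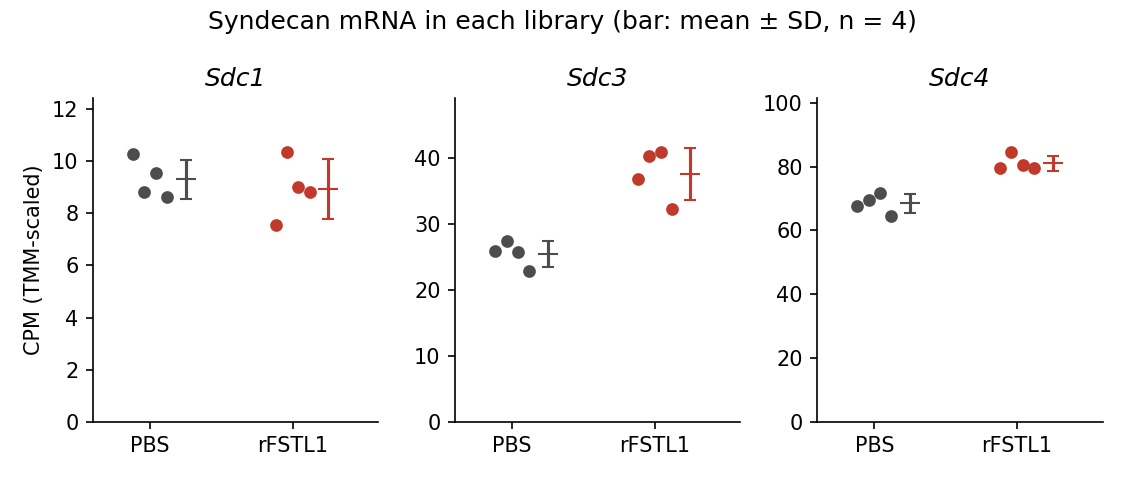
Level of Sdc1, Sdc3 and Sdc4 in CPM (y axis, linear, from 0) in each PBS (grey) and rFSTL1 (red) library, with the group mean and SD beside the 4 points. The rFSTL1 points of Sdc3 (32.3 to 40.9) and Sdc4 (79.5 to 84.6) lie above all PBS points. Those of Sdc1 (7.55 to 10.3) overlap the PBS points and extend beyond them at both ends.

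Sdc2 and Gpc1, a syndecan of mesenchymal cells and the most widespread glypican, were near the limit of detection. Sdc2 had 4 counts in PBS replicate 1 and 0 in the other 7 libraries. Gpc1 had 3 counts in PBS replicate 2, 2 in PBS replicate 4, 1 in rFSTL1 replicate 2 and 0 elsewhere. These few reads were spread unevenly and both groups hold libraries at 0. Summed over a group, Sdc2 stood at 0.0571 CPM under PBS, and the 0 counts under rFSTL1 allow up to 0.0430 CPM (3 counts over the group). The ratio of rFSTL1 to PBS had an exact 95% Poisson interval of 0 to 1.52 for Sdc2 and of 0.00424 to 1.79 for Gpc1, around a value of 0.201. The floor is a rounded one-sided bound on a level, and the intervals are two-sided bounds on a ratio, so they are not read against each other. Floor and intervals cover counting error only. Neither difference was detectable at this depth. Of the 5 other glypicans, Gpc2, Gpc3, Gpc4 and Gpc5 had 0 counts in all 8 libraries and Gpc6 had 1. Gpc1 also shares 977 of its 5159 exonic bases with Ankmy1 on the opposite strand.

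The 2 PBS libraries with the largest single counts of Sdc2 and Gpc1 also held reads of fibroblast and matrix genes, a set picked after these values were seen. Biglycan (Bgn) had 8 and 18 counts in PBS replicates 1 and 2 and 0 in the other 6 libraries. Decorin (Dcn) had 5 and 7 counts there and 0 elsewhere, and Col3a1, a fibrillar collagen, had 7 and 4 with 1 more in rFSTL1 replicate 4. Of the 3 fibroblast markers, Pdgfra was at 0 throughout, and their summed level ran from 0 to 0.607 CPM under PBS and from 0 to 0.103 CPM under rFSTL1. The part of such reads in the Sdc2, Gpc1 and Fstl1 counts was not tested. In rFSTL1 replicate 2 the hepatocyte gene Alb had 13 counts.

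**Figure D2:**
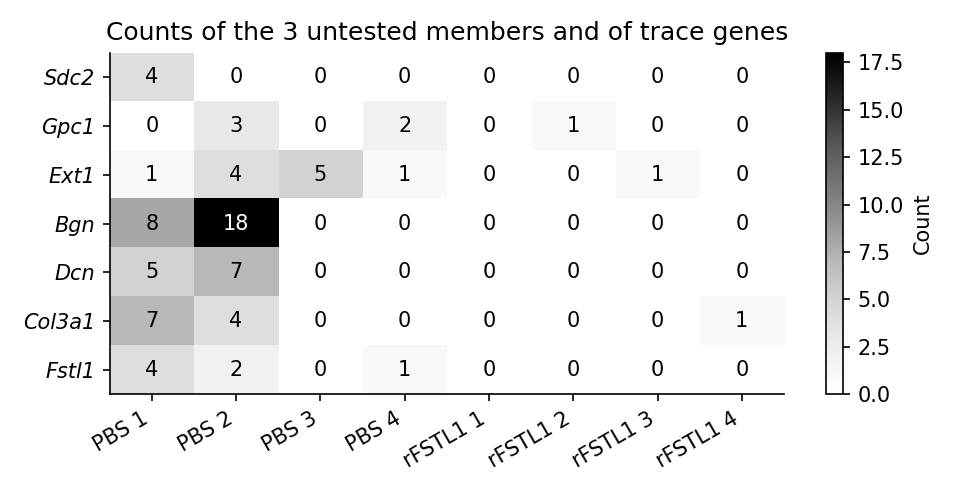
Whole counts (numbers in the cells, darker for more) of Sdc2, Gpc1 and Ext1, of the trace genes Bgn, Dcn and Col3a1, and of Fstl1 (rows) in the 8 libraries (columns). Sdc2 is confined to 4 counts in PBS 1, where Bgn has 8, and Ext1 has 11 counts over the PBS libraries and 1 over the rFSTL1 libraries.

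With Sdc2 at trace level, 3 syndecans made up the measured surface carriers of this family. Per kilobase of the longest annotated transcript, Sdc4 accounted for 77.6% ± 0.80 (SD, n = 4) of the summed level of Sdc1, Sdc3 and Sdc4 under PBS and 76.1% ± 1.40 under rFSTL1. Sdc3 took 14.2% ± 0.64 and 17.4% ± 1.33, and Sdc1 8.21% ± 0.60 and 6.52% ± 0.62. Every rFSTL1 library had a larger Sdc3 share (15.6% to 18.8%) than any PBS library, and a smaller Sdc1 share (5.67% to 7.16% against 7.61% to 9.05%), while the ranges of the Sdc4 share overlapped. The Sdc1 share has Sdc3 and Sdc4 in its denominator, and the level of Sdc1 itself overlapped between the groups (means 2.95 and 2.83 CPM per kilobase). The sum itself was 35.9 ± 1.63 CPM per kilobase under PBS and 43.3 ± 1.87 under rFSTL1, again with no overlap (33.6 to 37.4 against 41.6 to 45.8). Dividing by coding length in place of transcript length moved Sdc1 to 6.91% and 5.48%.

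**Figure D3:**
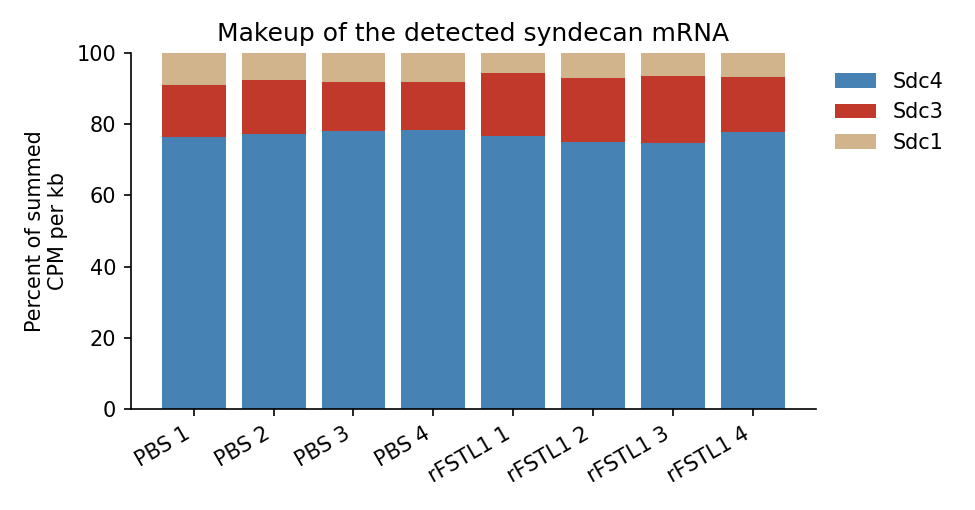
Share of Sdc4, Sdc3 and Sdc1 (stacked, percent, from 0 to 100) in the summed CPM per kilobase of these 3 genes in each library. Sdc4 takes most of every bar, and the Sdc3 band is wider in the rFSTL1 libraries (mean 17.4%) than in the PBS libraries (mean 14.2%).

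The 2 polymerase genes were measured at very different levels. Ext2 had 12209 counts over the 8 libraries and Ext1 had 12. On the per-length scale Ext2 stood at 22.8 CPM per kilobase under PBS, against 0.0205 for the summed PBS reads of Ext1. The 12 reads of Ext1 fell as 1, 4, 5 and 1 in PBS replicates 1 to 4 and as 0, 0, 1 and 0 in the rFSTL1 replicates. After scaling to library size the groups did not overlap, with the PBS libraries higher, as in 3.53% of the genes tested, which exclude Ext1. This rests on single reads, since PBS replicates 1 and 4 (0.0607 and 0.0657 CPM) and rFSTL1 replicate 3 (0.0523 CPM) hold 1 read each and differ by library size alone. The ratio of rFSTL1 to PBS, from 11 counts against 1, was 0.0912 with an exact 95% Poisson interval of 0.00212 to 0.627, which covers counting error only. When all 14720 genes with at least 1 count were fitted, Ext1 did not pass the threshold. Why a chain polymerase gene has so few reads here was not tested.

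Ext2 was at 83.4, 83.4, 82.3 and 89.8 CPM in the PBS libraries and at 84.4, 82.0, 97.5 and 94.4 CPM in the rFSTL1 libraries. The groups overlapped, and the 2 highest rFSTL1 values were in replicates 3 and 4, the libraries with less mitochondrial RNA and higher GC. The log2 fold change was 0.08 (SE 0.06), and -0.03 with those 2 libraries left out. The part of this library property in the value was not tested.

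Among the sulfotransferases, Ndst2 had the highest level of the N-deacetylase/N-sulfotransferases and Hs6st1 the only detected 6-O-sulfotransferase. Ndst2, the isoform known for heparin synthesis in mast cells, measured 109.0, 110.5, 105.2 and 119.0 CPM under PBS and 103.3, 100.7, 106.9 and 112.7 CPM under rFSTL1, with a log2 fold change of -0.06 (SE 0.05). The groups overlapped. Ndst1, the form on which most other tissues depend, had 92 counts in all PBS libraries and 64 in all rFSTL1 libraries, or 1.15, 1.55, 1.63 and 0.788 CPM against 1.47, 0.493, 1.10 and 0.667 CPM. Its groups overlapped as well, and its log2 fold change of -0.50 had an SE of 0.34, the widest among the 7. That value ran from -0.31 without rFSTL1 replicate 2 to -0.77 without rFSTL1 replicate 1. Ndst3 had 0 counts and Ndst4 had 1.

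Hs6st1 ran from 57.6 to 64.2 CPM in PBS libraries and from 58.3 to 69.1 CPM in rFSTL1 libraries, with overlap and a log2 fold change of 0.03 (SE 0.06). Without rFSTL1 replicates 3 and 4 that value was -0.07. Hs6st2 and Hs6st3 had 0 counts in every library. Over 447 of its 5542 exonic bases Hs6st1 is overlapped by the antisense gene Gm37335.

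The 7 members were also ordered by per-length level. From the top the mean levels in CPM per kilobase under PBS and rFSTL1 were 27.8 and 32.9 for Sdc4, 28.4 and 27.1 for Ndst2, 22.8 and 24.1 for Ext2, and 16.5 and 16.9 for Hs6st1. Below these came Sdc3 with 5.11 and 7.56, Sdc1 with 2.95 and 2.83, and Ndst1 with 0.198 and 0.144. Neighbouring pairs were compared within each library. The pairs were set by ranking the same libraries, and Sdc3 and Sdc4, whose treatment contrast was known, enter 3 of the 6, so the differences are a description with no test. Over all 8 libraries Sdc4 stood above Ndst2 by a mean log2 difference of 0.13 ± 0.20 (SD) and in 6 of 8 libraries, a difference smaller than its spread, but the groups were not alike in this pair. Under PBS Sdc4 was higher in 2 of 4 libraries (log2 difference -0.03 ± 0.14), and under rFSTL1 in 4 of 4 (0.28 ± 0.10), with 32.3 to 34.4 CPM per kilobase for Sdc4 and 25.8 to 28.8 for Ndst2. The other 5 pairs kept their order in 8 of 8 libraries, by log2 differences of 0.25 for Ndst2 over Ext2, 0.49 for Ext2 over Hs6st1, 1.43 for Hs6st1 over Sdc3, 1.11 for Sdc3 over Sdc1 and 4.18 for Sdc1 over Ndst1. The pairs with Sdc3 differed by group, with Hs6st1 over Sdc3 by 1.69 under PBS and 1.16 under rFSTL1. Sdc3 stood over Sdc1 by 0.80 and 1.42. For Ndst2 over Ext2 the difference was 0.32 ± 0.024 (SD) under PBS and 0.17 ± 0.077 under rFSTL1. The upper part of the order depended on the length used. Per kilobase of coding sequence Sdc4 was alone at the top, by a log2 difference of 1.32 over Hs6st1 in 8 of 8 libraries, and Hs6st1 moved above Ndst2 and Ext2. Ndst2 was then above Ext2 in 4 of 8 libraries (mean log2 difference 0.02 ± 0.093), and Sdc3, Sdc1 and Ndst1 kept the last 3 places.

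**Figure D4:**
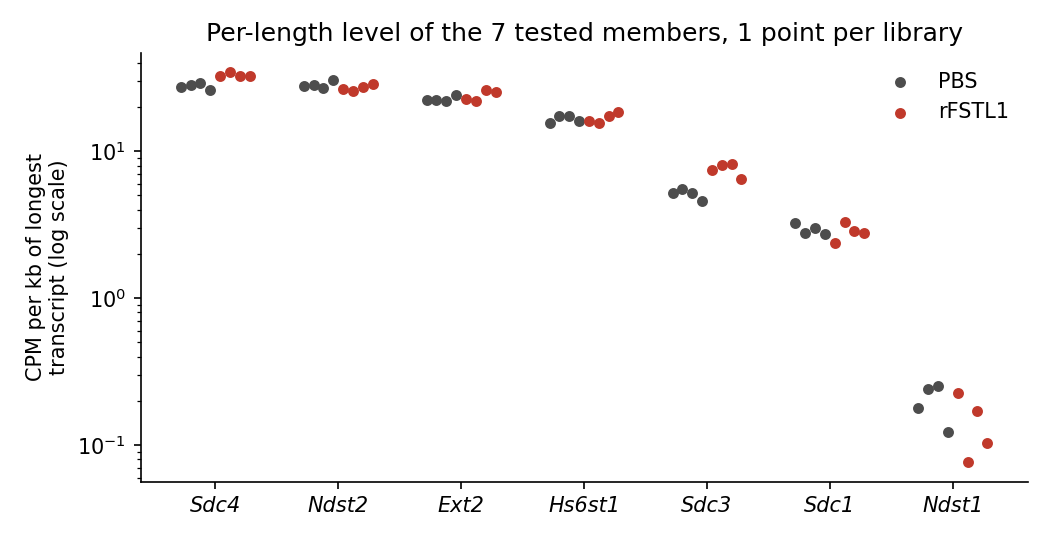
Per-length level (CPM per kilobase of longest transcript, log axis) of the 7 tested members in each PBS (grey) and rFSTL1 (red) library. Sdc4 and Ndst2 overlap under PBS, the rFSTL1 points of Sdc4 (32.3 to 34.4) lie above all points of Ndst2, Sdc3 and Sdc1 lie below Hs6st1, and Ndst1 lies far below the rest at 0.144 to 0.198 on average.

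In the fit across all genes, 2 of the 7 tested members, Sdc3 and Sdc4, had an adjusted p under 0.05 by edgeR's quasi-likelihood test, both higher under rFSTL1, and 0 were lower. Of all genes tested, 0.344% passed, 0.326% in the higher direction and 0.0186% in the lower. At an unadjusted p under 0.05 the count was the same 2, beside 8.29% of all genes higher. Of the 7 tested members the same 2 had groups without overlap, both higher, which 4.63% of all genes showed in that direction and 8.16% in either. The members were picked from this contrast, so nothing is read from these counts. The log2 fold change was positive for 4 members and negative for 3, with a median of 0.03, and the median of all genes was 0.01. The signs of Sdc1, Ext2 and Hs6st1 changed in some settings.

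The Sdc4 call was not steady. It was lost under 1 change of model and when PBS replicate 1, 2, 3 or 4 or rFSTL1 replicate 2 or 3 was left out, which left 1 member called each time, although its log2 fold change stayed between 0.21 and 0.27. With PBS replicates 1 and 2 left out together, 0 members passed and 6 genes passed in all, with log2 fold changes of 0.62 for Sdc3 and 0.24 for Sdc4.

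The rest of the pathway was read from 12 lists holding 105 genes, of which 19 had 0 counts and 66 were tested. By edgeR's quasi-likelihood test over all genes, 2 of the 66 rose and 0 fell, beside 0.344% of all genes called. The 2 were Chst3, which sulfates chondroitin at the 6 position, and Vegfa, a growth factor with heparin-binding forms. The lists were chosen with earlier results of these data known. Counts over them and p-values of their genes are therefore a description, and nothing is read from them. At an unadjusted p under 0.05 there were 7 higher and 4 lower, or 11 of 66, beside 15.9% of all genes. The median log2 fold change was 0.013 over the 66 and 0.0058 over all genes. Of the 66, 3 were higher without overlap, Chst3, Vegfa and Pdgfb, and 2 were lower, Cask and the epimerase gene Glce, where 4.63% and 3.53% of all genes stood apart in these directions. Pdgfb and Glce are named after their values were seen.

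Chst3 measured 35.7 ± 1.38 CPM under PBS and 44.5 ± 2.62 under rFSTL1 (SD, n = 4), a log2 fold change of 0.32 (SE 0.06, edgeR adjusted p = 0.0301). That call was lost without any 1 of the 4 PBS replicates or rFSTL1 replicate 4, with adjusted p of 0.0636, 0.0870, 0.121, 0.160 and 0.0518 in that order (range over its alternatives 0.00175 to 0.186). Vegfa rose from 28.6 ± 3.66 to 41.9 ± 1.98 CPM, a log2 fold change of 0.55 (SE 0.08, edgeR adjusted p = 0.00676), and was called without each single library but not with PBS replicates 1 and 2 both left out.

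Enzymes that act before and beside the members had small differences. In the linker group 0 of 6 tested genes passed, and its most abundant member Fam20b, a xylose kinase, was at 54.1 ± 2.52 and 55.4 ± 4.25 CPM (log2 fold change 0.04, SE 0.06). B4galt7, the first galactosyltransferase of the linker, gave 0.11 (SE 0.08). Extl3 and Extl2, relatives of the polymerases, gave 0.03 (SE 0.06) and -0.12 (SE 0.07). Over the alternatives other than leaving out 1 library, Extl2 ran from -0.15 to -0.020. Extl3 was at 83.5 ± 2.36 CPM under PBS, beside 12 reads in all for Ext1.

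Of 13 other modifying enzymes 9 had 0 counts, 3 were tested and 0 passed. Hs2st1, the 2-O-sulfotransferase, was at 73.5 ± 3.59 and 68.1 ± 4.29 CPM (log2 fold change -0.11, SE 0.06). Hs3st3b1 was the only one of 7 3-O-sulfotransferase genes with reads and gave 22.8 ± 1.65 and 27.5 ± 2.97 CPM (log2 fold change 0.27, SE 0.08, edgeR adjusted p = 0.168). Heparanase (Hpse), which cuts the chain, was low at 0.585 ± 0.10 and 0.810 ± 0.27 CPM.

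None of the lists for shedding, precursor supply or breakdown held a call. The sheddase genes Adam17 and Adam10 gave log2 fold changes of -0.07 (SE 0.04) and -0.14 (SE 0.06). In the supply of sugar nucleotides and sulfate donors 0 of 16 tested genes passed, with Gnpnat1 at -0.19 (SE 0.07) and Gfpt1, the first step of the hexosamine pathway, at 0.06 (SE 0.05). All 8 lysosomal enzymes of heparan sulfate breakdown were tested, 0 passed, and Gusb, a beta-glucuronidase, was at 613 ± 12.5 and 618 ± 37.2 CPM, with Naglu at 0.17 (SE 0.08).

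Among partners of the syndecan tail 0 of 7 tested genes passed. Sdcbp encodes syntenin, an adaptor that binds syndecan tails, and was at 675 ± 12.4 and 641 ± 42.5 CPM (log2 fold change -0.07, SE 0.05). Cask, a scaffold kinase that binds the same tails, was at 69.4 ± 2.76 and 61.6 ± 2.85 CPM (log2 fold change -0.17, SE 0.05, edgeR adjusted p = 0.148). Other proteoglycans also gave 0 calls of 7 tested. Cd74, the invariant chain, which can carry a chondroitin sulfate chain, gave 76.7 ± 6.17 and 91.6 ± 5.76 CPM (log2 fold change 0.26, SE 0.06, edgeR adjusted p = 0.0763), and a log2 fold change of 0.15 with the length and GC trend removed. Cd44, the hyaluronan receptor, gave 0.04 (SE 0.04), agrin (Agrn) 0.11 (SE 0.11) and Col18a1 -0.52 (SE 0.37). Col18a1 was -0.25 without rFSTL1 replicate 1, -0.88 without rFSTL1 replicate 4 and -1.23 without rFSTL1 replicates 3 and 4. Agrn was 0.049 without PBS replicate 4 and 0.16 without PBS replicate 1. Csgalnact2, an initiator of chondroitin chains, gave -0.11 (SE 0.07) and the growth factor Tgfb1 0.09 (SE 0.06).

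**Figure D5:**
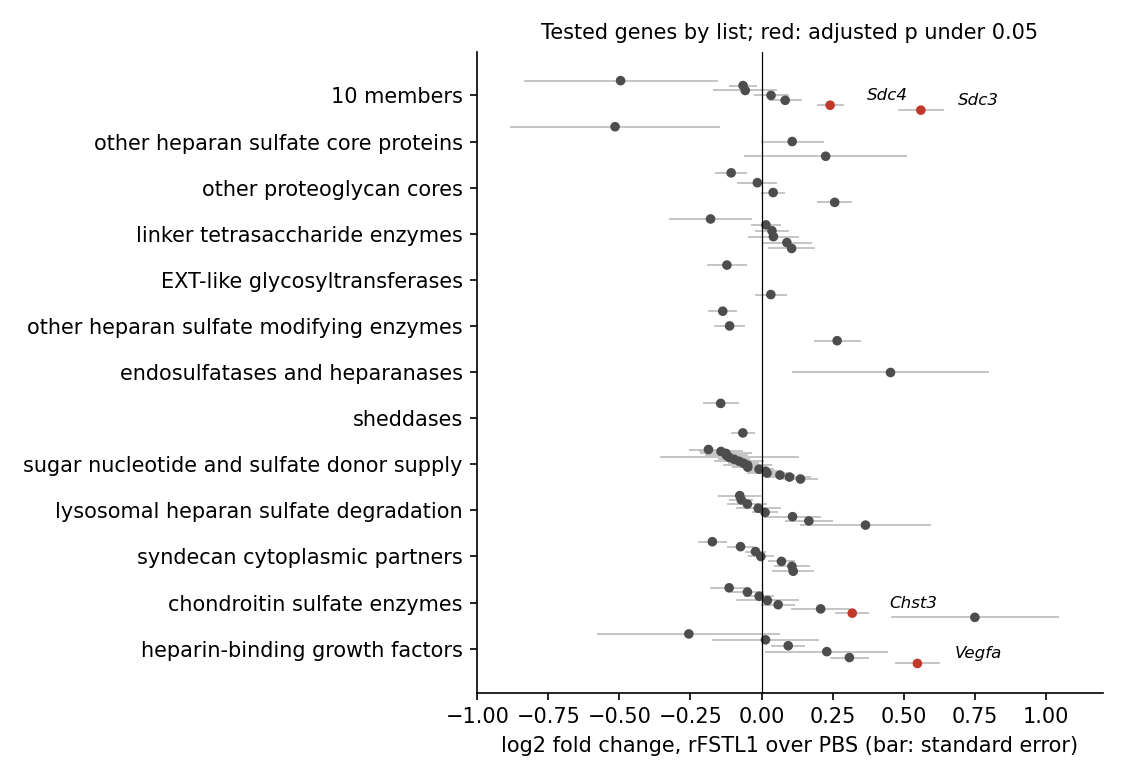
Log2 fold change of rFSTL1 over PBS (x axis, bars are standard errors) for each tested gene, in rows for the 10 members (7 tested) and the 12 pathway lists. Red points passed an adjusted p of 0.05, namely Sdc3 (0.56), Sdc4 (0.24), Chst3 (0.32) and Vegfa (0.55), and most other points lie near 0.

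The genes whose pattern over the 8 libraries lay nearest to that of Sdc3 were found by the root mean square difference of centred log2(CPM + 1) values. They were the chemokine gene Ccl4 (0.0740), the corepressor gene Rcor2 (0.0920), the chemokine gene Ccl3 (0.0987), the cyclin gene Ccng2 (0.105) and the copper transporter gene Atp7b (0.106). Ccl4 was at 51.9 ± 5.24 CPM under PBS and 74.2 ± 8.98 under rFSTL1, and Ccl3 at 161 ± 7.03 and 211 ± 14.2. All 5 were higher in each rFSTL1 library than in any PBS library, as Sdc3 was, which the measure of likeness favours.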

How the data were processed

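RNA-seq of 8 RAW264.7 libraries (NEBNext Ultra kit, NovaSeq) was analysed. The authors deposited estimated counts (expected counts) per gene without normalization, and 13.0% of nonzero values were not whole, so all were rounded, although whole counts had been assumed in the design. Per the labels, the tools were HISAT2, Bowtie2 2.2.8, StringTie 1.3.1 and DESeq2, with no roles, and the build and strand setting are not given in the sources used here. In R 4.3.3, genes were kept by filterByExpr (minimum count 10), scaled by TMM and compared with edgeR 4.0.16 (glmQLFit, glmQLFTest, Benjamini-Hochberg, threshold 0.05). Standard errors were the absolute log2 fold change over the square root of that test's F statistic, with variability estimated partly across genes. CPM values use TMM library sizes. Lengths came from the longest GENCODE M21 transcript and promoters from RefSeq. The alternatives were DESeq2 1.42.0, limma 3.58.1 voom with quality weights, upper-quartile scaling, library totals, no count filter, a replicate block, removal, by splines of 4 degrees of freedom, of each library's trend with length and GC, a threshold of 0.1, coding length and leaving out each library. Leaving out PBS replicates 1 and 2, or rFSTL1 replicates 3 and 4, was added after seeing the data. The members and lists were chosen with earlier results of these data known. Named in the text were the members, each list's called genes, its gene of smallest p and its most abundant gene, the 5 genes nearest to Sdc3 (pseudocount 1) and Fstl1. Replicates of a group differed by more than sampling noise. The chi-square per degree of freedom was 3.02 to 4.14 between PBS libraries and 4.42 to 18.4 between rFSTL1 libraries. The scripts were tested on simulated data. Of 22013 rows, 112 had no symbol. The sign-flip test designed for neighbouring levels was not used, since the pairs were ranked on the same libraries. Intervals were exact, two-sided and at 95%. Floors were a fixed 3 counts, a rounded one-sided bound.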

Additional observations from a re-analysis of the deposited data

Results flagged for a closer look

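A library stood apart from the rest of its group, by Dixon's test at the 95% level, in 6 of 76 groups of members and named genes. Chance alone gives about 1 in 20, or 3.8. Of the 6, 3 were low-count members with reads in 1 library and 0 in the rest of the group, which meets the criterion whatever the count, so the 6 are not read against chance: Sdc2 in PBS replicate 1 (0.243 CPM), Gpc1 in rFSTL1 replicate 2 (0.0616 CPM) and Ext1 in rFSTL1 replicate 3 (0.0523 CPM). Among well-measured members, Sdc4 was at 84.6 CPM in rFSTL1 replicate 2, where the others were at 79.5 to 80.3, and Ext2 was at 89.8 CPM in PBS replicate 4, where the others were at 82.3 to 83.4. Sdcbp was at 657 CPM in PBS replicate 3 and at 680 to 683 in the rest of its group.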

How the results depend on the processing

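Counts of called genes changed with the settings. Of all genes, 37 (35 higher, 2 lower) passed, against 182 by DESeq2 (130 higher, 52 lower), 454 by limma voom (244 and 210), 127 with every gene of at least 1 count (101 and 26), 56 with upper-quartile scaling, 73 with the length and GC trend removed, 70 with that removal and the replicate block, 133 at a threshold of 0.1, 11 to 99 when 1 library was left out, and 6 without PBS replicates 1 and 2. The cause was not tested. The 2 member calls became 1 with the replicate block (Sdc3), 1 to 2 when 1 library was left out, 0 without PBS replicates 1 and 2 and 1 without rFSTL1 replicates 3 and 4. Pathway calls went from 2 to 4 by DESeq2, voom, the fit of all genes with at least 1 count and the threshold of 0.1 (Cd74 and Pdgfb added each time), to 1 to 3 when 1 library was left out, and to 0 without PBS replicates 1 and 2, an arm of only 2 libraries. Same-numbered libraries did not deviate together (correlations -0.03 to 0.01). With so few libraries this cannot show whether the numbers mark a pairing. The replicate block gave 41 calls among all genes. Without rFSTL1 replicates 3 and 4 the log2 fold changes of Ext2 and Hs6st1 were -0.025 and -0.066. No scaling moved the median of all genes by 0.1.

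Leaving out 1 library moved the log2 fold change by over 1.5 times for 0 of the 4 called members and pathway genes named. It did so for 20 of the 26 not called, such as Adam10 (-0.087 to -0.22) and B4galt7 (0.059 to 0.18). Other alternatives moved these 2 further, with Adam10 reaching -0.017 and B4galt7 0.029, the latter with the length and GC trend removed. Among members, removing the length and GC trend took Sdc1 from -0.06 to -0.12, Ndst2 from -0.06 to -0.13 and Ext2 from 0.08 to 0.037. Small values changed sign, among the members too. Hs6st1 was -0.052 with the length and GC trend removed, -0.051 with the block added, -0.0036 without PBS replicate 1 and -0.016 without rFSTL1 replicate 4, and Sdc1 was 0.0041 without rFSTL1 replicate 1. With 1 library left out, Fam20b ran from -0.016 to 0.071, Extl3 from -0.020 to 0.066 and Gusb from -0.021 to 0.041, with -0.00053 without PBS replicate 3. With the length and GC trend removed, and then with the block added, Extl3 was -0.011 and -0.013, Gusb -0.032 and -0.032, and Csgalnact2 0.013 and 0.016. Extl3 was -0.0080 without PBS replicates 1 and 2. Without rFSTL1 replicates 3 and 4, Extl3 was -0.060, Gusb -0.048, Naglu -0.0077, Tgfb1 -0.010 and Sdcbp 0.0050. With coding length, 5 of 6 neighbouring pairs again held in 8 of 8 libraries but only 4 of 7 ranks were kept. The shares under PBS and rFSTL1 were then 6.91% and 5.48% for Sdc1 and 79.8% and 78.3% for Sdc4. Sdc3 took 13.3% under PBS, and its mean level per kilobase of coding sequence was 19.2 CPM under PBS and 28.3 under rFSTL1. Depth limits Sdc2, Gpc1 and Ext1, with at most 5 counts in a library.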
